A study of Mus musculus with 10 samples.

Results

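The places bound by Ezh2 in mouse embryonic stem cells (ESCs) were compared with the places that carried H3K27me3, the histone mark that Ezh2 makes. The members were all peaks of the ESC Ezh2 list and of the ESC H3K27me3 list, 1173 and 2192 peaks, which together are 3365 of the 9769 peaks in the 6 lists of the series. A peak counted as having a partner when it shared at least 1 bp with a peak of the other list. This gave 959 H3K27me3 peaks with Ezh2, 1233 H3K27me3 peaks without Ezh2 and 223 Ezh2 peaks without H3K27me3. The 959 H3K27me3 peaks with Ezh2 were the counterpart of 950 Ezh2 peaks with H3K27me3.

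The cells were J1 ESCs, a mouse line to which the labels give no genetic change, grown with serum and LIF on feeder fibroblasts that were depleted before harvest. ESC lists for Ring1b and Cbx2, and lists for Ring1b and H3K27me3 in neural stem cells (NSCs) that were differentiated in culture from J1 ESCs, served as readouts that the classes did not use. Chromatin was cross-linked in 1% formaldehyde for 10 min and sheared to 250 bp on average. Each cell type and target had 1 library, so no difference below has a replicate check or a test, and the intervals given are exact 95% Clopper-Pearson intervals over peaks or genes that cover counting error only. The Ezh2, H3K27me3 and Cbx2 libraries of ESCs were set against the same input library, and Ring1b against its own, with a longer cross-linker (EGS) that the study's methods name for Ring1b. The lists hold where each peak starts and ends, without height or score, so the absence of a peak says only that the calling threshold was not reached there, and the depth of each library is unknown. Expression was not among the values, so the cells could not be checked against markers. The pluripotency gene Nanog had no Ezh2 or H3K27me3 peak within 5 kb of its body. This is no check of the cells, because 2.56% of all protein-coding starts lay under Ezh2 and 4.31% under H3K27me3.

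Ezh2 is the catalytic subunit of Polycomb repressive complex PRC2 and methylates lysine 27 of histone H3. The trimethylated form, H3K27me3, is bound by Eed, another PRC2 subunit, and by the chromodomain of Cbx proteins such as Cbx2, which belong to the complex PRC1 together with the ubiquitin ligase Ring1b. In ESCs this system is known for covering CpG islands of genes that encode developmental transcription factors and signalling proteins, which are silent or nearly so in these cells. A mark on nucleosomes can spread beyond the place where its enzyme is cross-linked, and an enzyme can be bound where little of its product is found, so the lists need not coincide.

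Promoter sequences of the 3 classes are shown first, because CpG content is the sequence feature on which the classes are compared further on. Each runs 5′ to 3′ in mm9 from 100 bases before the start site to 29 bases after it, on the strand of the gene, with every CG dinucleotide in capitals. Onecut3, a homeobox factor, lies under an H3K27me3 peak with Ezh2. Rtn4r, the Nogo receptor of neurons, and Paqr9, a membrane receptor family member, lie under H3K27me3 peaks without Ezh2. Hoxd3, a homeobox gene of body axis patterning, and Kcnk12, a potassium channel subunit, lie under Ezh2 peaks without H3K27me3. Hnrnpa3, a widely expressed RNA-binding protein, has neither peak and is shown for comparison.
Onecut3 (chr10:79957551-79957680, plus strand): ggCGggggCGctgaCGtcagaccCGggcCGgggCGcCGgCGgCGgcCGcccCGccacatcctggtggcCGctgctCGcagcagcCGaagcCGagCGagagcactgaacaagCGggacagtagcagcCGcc
Rtn4r (chr16:18127635-18127764, plus strand): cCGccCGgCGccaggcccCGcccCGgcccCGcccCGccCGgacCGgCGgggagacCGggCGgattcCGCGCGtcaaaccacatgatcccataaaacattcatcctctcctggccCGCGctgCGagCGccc
Paqr9 (chr9:95460136-95460265, plus strand): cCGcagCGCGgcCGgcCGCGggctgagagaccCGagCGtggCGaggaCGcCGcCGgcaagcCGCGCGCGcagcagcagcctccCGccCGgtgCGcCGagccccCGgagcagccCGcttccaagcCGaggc
Hoxd3 (chr2:74549886-74550015, plus strand): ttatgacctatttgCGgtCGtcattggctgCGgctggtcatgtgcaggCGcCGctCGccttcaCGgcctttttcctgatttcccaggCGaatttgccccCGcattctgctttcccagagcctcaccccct
Kcnk12 (chr17:88197305-88197434, minus strand): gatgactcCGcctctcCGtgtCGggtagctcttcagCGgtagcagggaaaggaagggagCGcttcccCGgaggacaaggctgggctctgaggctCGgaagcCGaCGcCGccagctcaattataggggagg
Hnrnpa3 (chr2:75497218-75497347, plus strand): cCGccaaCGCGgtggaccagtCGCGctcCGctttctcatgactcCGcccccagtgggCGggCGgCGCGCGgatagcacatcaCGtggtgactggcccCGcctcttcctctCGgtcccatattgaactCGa

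These windows held 18 CG dinucleotides at Onecut3, 19 at Rtn4r, 23 at Paqr9, 9 at Hoxd3, 10 at Kcnk12 and 16 at Hnrnpa3. Over the 22350 protein-coding starts of the annotation the same window held a median of 6 (quartiles 2 and 12). All 6 were thus above the median start, the unbound Hnrnpa3 promoter among them, and the pair from Ezh2 peaks without H3K27me3 held fewest. At Onecut3 both peaks, 10200 bp for H3K27me3 and 9400 bp for Ezh2, had the same centre. The Rtn4r and Paqr9 peaks were 3600 and 4000 bp wide, and the Hoxd3 and Kcnk12 peaks 1600 and 2200 bp.

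The overlap was lopsided. Of the 1173 Ezh2 peaks 950, or 81.0% (interval 78.6 to 83.2%), overlapped H3K27me3. Of the 2192 H3K27me3 peaks 959, or 43.8% (41.7 to 45.9%), overlapped Ezh2. Most Ezh2 peaks were therefore marked, whereas most H3K27me3 peaks, 1233 of 2192, lay outside any Ezh2 peak. As the paired counts, 950 and 959, were nearly equal, the 2 shares differ through the lengths of the lists. Those lengths depend on the calling threshold and on depth, which are unknown. In bases, the Ezh2 list covered 2.85 Mb and the H3K27me3 list 4.905 Mb, of which 2.125 Mb was shared. The shared bases were 74.5% of the Ezh2 bases, 43.3% of the H3K27me3 bases and 37.7% of the bases under either list. H3K27me3 peaks with Ezh2 were fewer than those without but held 60.3% of all H3K27me3 bases.

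Peaks that had a partner were wide. H3K27me3 peaks with Ezh2 had a median width of 2400 bp (quartiles 1800 and 3600), against 1400 bp (1000 and 1800) for those without. Ezh2 peaks with H3K27me3 had a median of 2000 bp (1600 and 3000), against 1200 bp (1000 and 1600) for those without. The narrowest call that the lists contain is 1000 bp, a single enriched window. Such calls were 4.59% of the H3K27me3 peaks with Ezh2, 26.4% of those without, 9.47% of the Ezh2 peaks with H3K27me3 and 37.2% of those without. No unpaired peak was as wide as the widest paired ones, with largest widths of 7400 bp for H3K27me3 without Ezh2 and 3800 bp for Ezh2 without H3K27me3, against 26000 and 14800 bp for paired peaks.

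The share with a partner climbed with width in both lists, from 11.9% of H3K27me3 peaks of 1000 bp to 58.4% at 2000 to 2800 bp and 98.5% (128 of 130) at 5000 bp or more. For Ezh2 it ran from 52.0% at 1000 bp to 94.4% at 2000 to 2800 bp and 100% (102 of 102) at 5000 bp or more. In every width range the Ezh2 share was the higher, with the gap smallest among the widest peaks. A wide interval meets another more readily by its size alone, and the part of width in the class differences was not tested by any model. For this reason the overlaps with the other lists and with start sites are also given between peaks of the same width. Place in the genome, the X chromosome and the base composition of H3K27me3 peaks are not matched for width.

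**Figure D1:**
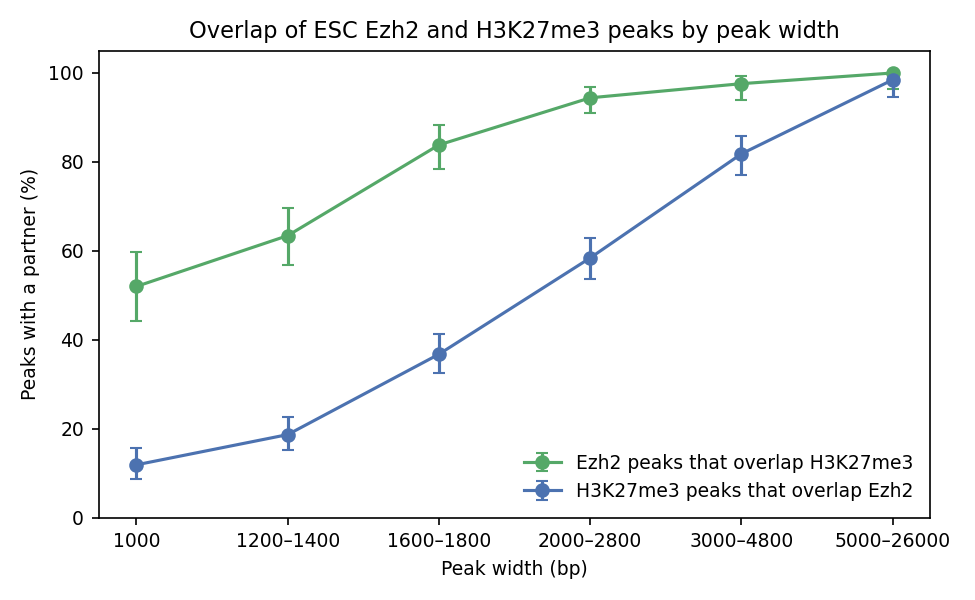
Share of ESC Ezh2 peaks that overlap H3K27me3 and of ESC H3K27me3 peaks that overlap Ezh2 (y axis, percent) in 6 ranges of peak width (x axis, bp), with exact 95% intervals that cover counting error only. The Ezh2 line starts at 52.0% and the H3K27me3 line at 11.9% for peaks of 1000 bp, and both are near 100% at 5000 bp and above.

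In paired peaks, Ezh2 inside the mark was the commonest arrangement, in just under 50% of pairs. Among the 874 pairs in which each peak had just the other as its partner, the Ezh2 peak lay inside the H3K27me3 peak in 425 (48.6%, 45.3 to 52.0%), the H3K27me3 peak inside the Ezh2 peak in 156 (17.8%), both shared the same edges in 34 and the peaks overlapped in part in 259. H3K27me3 was the wider in 542 pairs (62.0%) and Ezh2 in 244 (27.9%). The shared stretch had a median of 1800 bp (quartiles 1200 and 2400). The median share of a peak that was shared was 100% for Ezh2 peaks and 77.8% for H3K27me3 peaks. H3K27me3 exceeded Ezh2 by a median of 400 bp (-200 and 1000), which is 2 steps of the 200 bp grid on which peaks were called.

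Few peaks had several partners. Among H3K27me3 peaks with Ezh2, 934 had 1 partner, 24 had 2 and 1 had 3. The exception was a 9400 bp peak over En2, a homeobox gene of the midbrain and hindbrain boundary (chr5:28485601-28495000), with 3 Ezh2 peaks that shared 5600 bp with it. Of the Ezh2 peaks 918 had 1 partner, 29 had 2 and 3 had 3. Those 3 lay at Six3, a homeobox gene of forebrain and eye (14600 bp, 10400 bp shared), at Dmrta2, a DM-domain factor of the cortex (8400 bp, 5000 bp shared), and at Hoxb7 (5600 bp, 3000 bp shared). Interruptions thus occurred in either list, with Ezh2 continuous and H3K27me3 broken at Six3 and Dmrta2 and the reverse at En2.

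The centres of paired peaks lay close together, a median of 300 bp apart over 950 pairs (quartiles 100 and 700 bp), each Ezh2 peak being matched with the H3K27me3 peak that shared most of its bases. The centres coincided in 98 pairs (10.3%) and were within 1000 bp in 802 (84.4%). The 3 largest offsets came from broad domains. They were 12300 and 6800 bp for the 2 Ezh2 peaks, near Hoxa11 and Hoxa9, inside or across the edge of the 26000 bp H3K27me3 peak of the Hoxa cluster, and 4500 bp for a 1200 bp Ezh2 peak at an edge of the En2 domain.

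Relative to the outer annotated start of the gene, Ezh2 and H3K27me3 were both centred a little downstream. Where a gene also has starts further inside, measuring from the outer one places centres further downstream. Other starts were not tried for the offsets here and below, and the part of this choice was not tested. In 597 pairs at least 1 of the peaks held a protein-coding start. The H3K27me3 centre lay downstream of the start in 473 (79.2%, 75.7 to 82.4%) and the Ezh2 centre in 485 (81.2%, 77.9 to 84.3%). The median centre was 526.5 bp downstream for H3K27me3 (quartiles 75.5 and 1097.5) and 597.5 bp for Ezh2 (163.5 and 1059.5). Neither was systematically ahead of the other, because Ezh2 was downstream of H3K27me3 in 279 pairs and upstream in 264, and the median oriented difference was 0 bp (-400 and 400). Ezh2 was nearer to the start in 277 pairs and H3K27me3 in 266. Over single peaks with a partner and a start inside, whatever their direction, the centre lay a median of 566.5 bp from the start in 508 H3K27me3 peaks and 593.5 bp in 501 Ezh2 peaks.

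The peaks differed more in reach than in centre. Downstream, H3K27me3 went further than Ezh2 in 321 of the 597 pairs (53.8%) and Ezh2 further in 186 (31.2%), and the median downstream edge lay 1913 bp past the start for H3K27me3 and 1746 bp for Ezh2. Upstream, H3K27me3 went further in 332 (55.6%) and Ezh2 in 171 (28.6%), with median edges at -795 and -555 bp relative to the start. The mark overhung Ezh2 more often than the reverse on both sides of the start.

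In all, 572 protein-coding starts (2.56% of 22350) lay under Ezh2 and 964 (4.31%) under H3K27me3. Both covered 447 starts (2.0%), H3K27me3 alone 517 (2.31%) and Ezh2 alone 125 (0.559%). Of the starts under Ezh2, 78.1% (74.5 to 81.5%) were under H3K27me3 as well, and of the starts under H3K27me3, 46.4% (43.2 to 49.6%) were under Ezh2 as well. These shares by gene were close to those by peak.

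A start with Ezh2 and no H3K27me3 lay more often at the edge of a marked peak than in a lone Ezh2 peak. For 76 of the 125 such starts (60.8%, 51.7 to 69.4%) the Ezh2 peak did overlap H3K27me3 elsewhere along its length. In those 76 the nearest H3K27me3 began a median of 354.5 bp from the start (quartiles 127.5 and 747.2), and it lay downstream, on the side of the gene body, in 62 (81.6%, 71.0 to 89.5%). Just 49 of the 125 starts lay in Ezh2 peaks without any H3K27me3. For starts with H3K27me3 and no Ezh2 the balance was the other way, with 90 of 517 (17.4%, 14.2 to 21.0%) in a peak that met Ezh2 elsewhere and 427 in a peak without Ezh2. In those 90 the nearest Ezh2 was downstream of the start in 79 (87.8%) at a median of 188.5 bp. The downstream side is not particular to these starts. In the 597 pairs above, 79.2% of H3K27me3 and 81.2% of Ezh2 centres lay downstream.

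**Figure D2:**
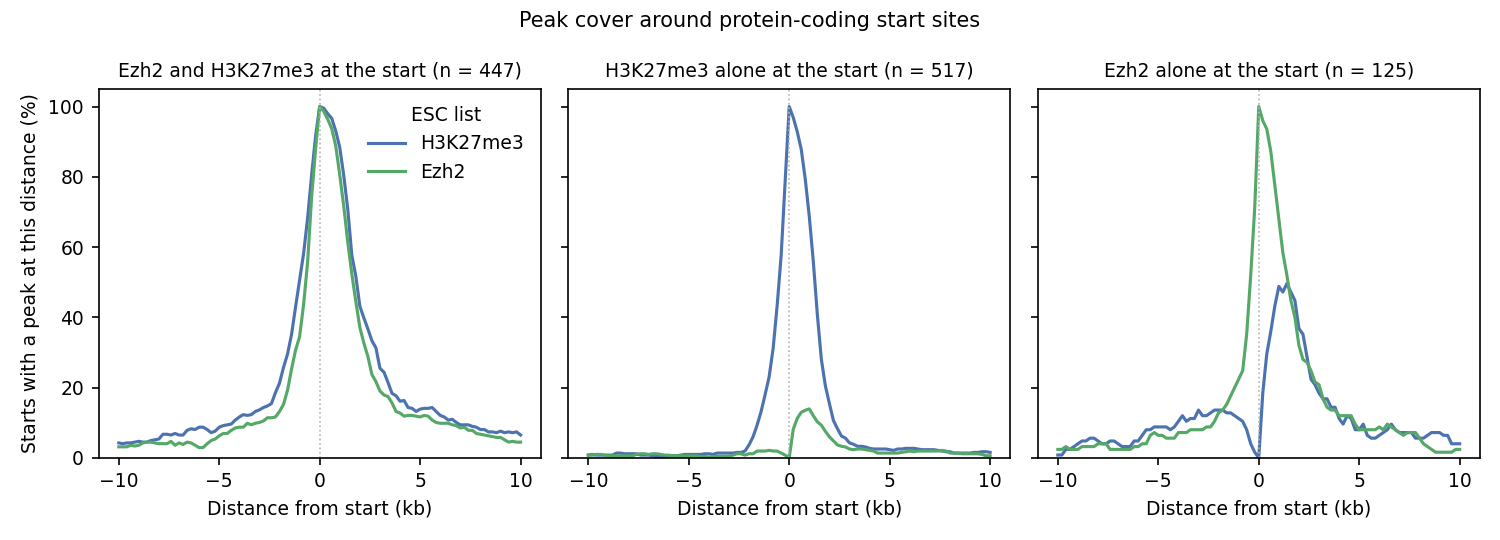
Share of protein-coding starts (y axis, percent) with an ESC H3K27me3 or Ezh2 peak at each distance from the start (x axis, kb, negative values upstream), for starts under both, under H3K27me3 alone and under Ezh2 alone. The values at 0 are set by how the 3 groups were made. Beside starts with Ezh2 alone the H3K27me3 line is at 48.8% 1 kb downstream and 11.2% 1 kb upstream, whereas beside starts with H3K27me3 alone the Ezh2 line is at 13.9% and 2.13%.

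Cover away from the start followed the same pattern. Among the 447 starts under both, H3K27me3 was present 1 kb downstream at 88.4% and Ezh2 at 80.5%. At 1 kb upstream the values were 50.6% and 34.5%. Among the 517 starts with H3K27me3 alone, the mark itself was shorter, at 68.7% 1 kb downstream and 23.02% 1 kb upstream. The H3K27me3 peak had a median width of 3200 bp (quartiles 2000 and 4600) at starts under both and 1800 bp (1400 and 2400) at starts with H3K27me3 alone.

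Developmental regulators were often under both. In 21 lists of transcription factor families and signalling ligands, 306 genes in all, 110 (35.9%) had both peaks over the start, 25 (8.17%) H3K27me3 alone, 33 (10.8%) Ezh2 alone and 138 neither, beside 2.0%, 2.31% and 0.559% over all protein-coding starts. The lists follow gene families and were chosen with earlier results of these data known. Among all starts with any cover, H3K27me3 alone was the commonest state, and among these 306 genes it was the rarest. Of the 33 genes with Ezh2 alone, 23 lay in an Ezh2 peak that met H3K27me3 elsewhere and 10 in an Ezh2 peak without it (Bmp3, Dhh, Fgf16, Foxa1, Hoxd3, Hoxd8, Nr2f1, Olig3, Pax1 and Tbx21). Of the 25 with H3K27me3 alone, 9 lay in a peak that met Ezh2 elsewhere and 16 in a peak without it.

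In the Hox, Dlx, Iroquois and Pax families most members had some cover at the start. Among the 39 Hox genes 18 had both, among them Hoxa2, Hoxa3 and Hoxa5, and 10 had neither. The outer Hoxa3 start used here lay in the same H3K27me3 peak as the Hoxa6 start. Another 4 Hox genes had H3K27me3 alone (Hoxa6, Hoxa10, Hoxb6, Hoxb8) and 7 had Ezh2 alone (Hoxa7, Hoxa13, Hoxb1, Hoxc5, Hoxc11, Hoxd3, Hoxd8). All 6 Dlx genes, homeobox factors of limbs, branchial arches and forebrain, were covered, 5 by both and Dlx2 by Ezh2 alone. At Dlx2 the Ezh2 peak was 8200 bp wide with its centre 3710.5 bp inside the gene, and it met H3K27me3 away from the start. The Iroquois genes, homeobox factors of neural and heart patterning, were mostly under Ezh2 alone. Irx3 had both peaks over its start, whereas Irx1, Irx2, Irx4 and Irx5 had Ezh2 alone, all 4 in Ezh2 peaks (5200, 4800, 1000 and 5600 bp) that met H3K27me3 beside the start. The Pax genes were split, with both at Pax3, Pax5 and Pax7, H3K27me3 alone at Pax6, Ezh2 alone at Pax1, Pax2 and Pax9, and neither at the other 2 of 9. Pax1 was the member in an Ezh2 peak without H3K27me3.

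The proneural, Nkx and LIM homeobox families had both at most of their members. Of 19 proneural basic helix-loop-helix genes, which drive neuronal and glial fate, 12 had both (among them Ascl2, Atoh1 and Atoh8), none had H3K27me3 alone and Olig3 had Ezh2 alone, in an 1800 bp Ezh2 peak without H3K27me3. Of 14 Nkx genes 8 had both, 1 H3K27me3 alone and Nkx2-5, a heart factor, Ezh2 alone. Of 12 LIM homeobox genes 7 had both, Lhx2 H3K27me3 alone and Lhx1 Ezh2 alone. The POU III and IV genes had both at 3 of 7 and H3K27me3 alone at Pou4f2. Otx, Pitx and Gsc genes had both at 4 of 6 and AP-2 genes at 3 of 5, with no start under a single list in those 2 groups. Zic4 had both and Zic1 Ezh2 alone among 5 Zic genes, and of the 3 COUP-TF genes Nr2f1 had Ezh2 alone.

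The forkhead, Sox, Gata and T-box families, several of whose members specify germ layers, each held all 3 states. Forkhead genes had both at 12 of 42, H3K27me3 alone at 4 (among them Foxi2, Foxj2 and Foxp2) and Ezh2 alone at Foxa1, Foxd2 and Foxd4. Sox genes had both at 6 of 18, H3K27me3 alone at Sox8 and Ezh2 alone at Sox21. Of 6 Gata genes Gata2 and Gata5 had both, Gata3 H3K27me3 alone and Gata6 Ezh2 alone. Of 17 T-box genes T, Tbx1 and Tbx2 had both, Tbx4 and Tbx20 H3K27me3 alone, and Eomes and Tbx21 Ezh2 alone. Eomes, a regulator of mesendoderm, had a 2600 bp Ezh2 peak centred upstream, at -829.5 bp from its start, opposite to the usual side.

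Signalling ligands had cover at 14 of 19 Wnt genes and at smaller shares of the other families. Wnt ligands had both at 10 of 19, H3K27me3 alone at Wnt5b, Wnt6 and Wnt9a and Ezh2 alone at Wnt3. TGF-beta ligands had both at 5 of 34, H3K27me3 alone at Gdf7, Inhbb and Tgfb1 and Ezh2 alone at Bmp3 and Bmp7. Fgf ligands had both at Fgf5 and Fgf8, H3K27me3 alone at Fgf3 and Fgf11 and Ezh2 alone at Fgf12 and Fgf16, of 22. In the Hedgehog pathway Ihh and Ptch1 had both, Hhip H3K27me3 alone and Dhh Ezh2 alone, of 11.

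Other gene groups are set beside the same shares of all protein-coding starts, 2.0% under both, 2.31% under H3K27me3 alone and 0.559% under Ezh2 alone. With shares this low, the counts in the lists of 7, 20 and 30 genes below cannot be told apart from those of all genes. Of 80 potassium channel genes, which serve excitability in differentiated cells, 6 had both, 9 H3K27me3 alone and 2 Ezh2 alone (Kcnk12 and Kcnk15), so H3K27me3 alone was the commonest state here. Of 7 CDK inhibitor genes Cdkn1c had both. Of 30 genes for PRC1 and PRC2 subunits Bmi1 and Cbx8 had H3K27me3 alone, each in a peak that met Ezh2 beside the start, and none had Ezh2. None of 20 pluripotency genes or 84 ribosomal protein genes was covered, and of 1087 olfactory receptor genes Olfr94 had H3K27me3 alone.

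**Figure D3:**
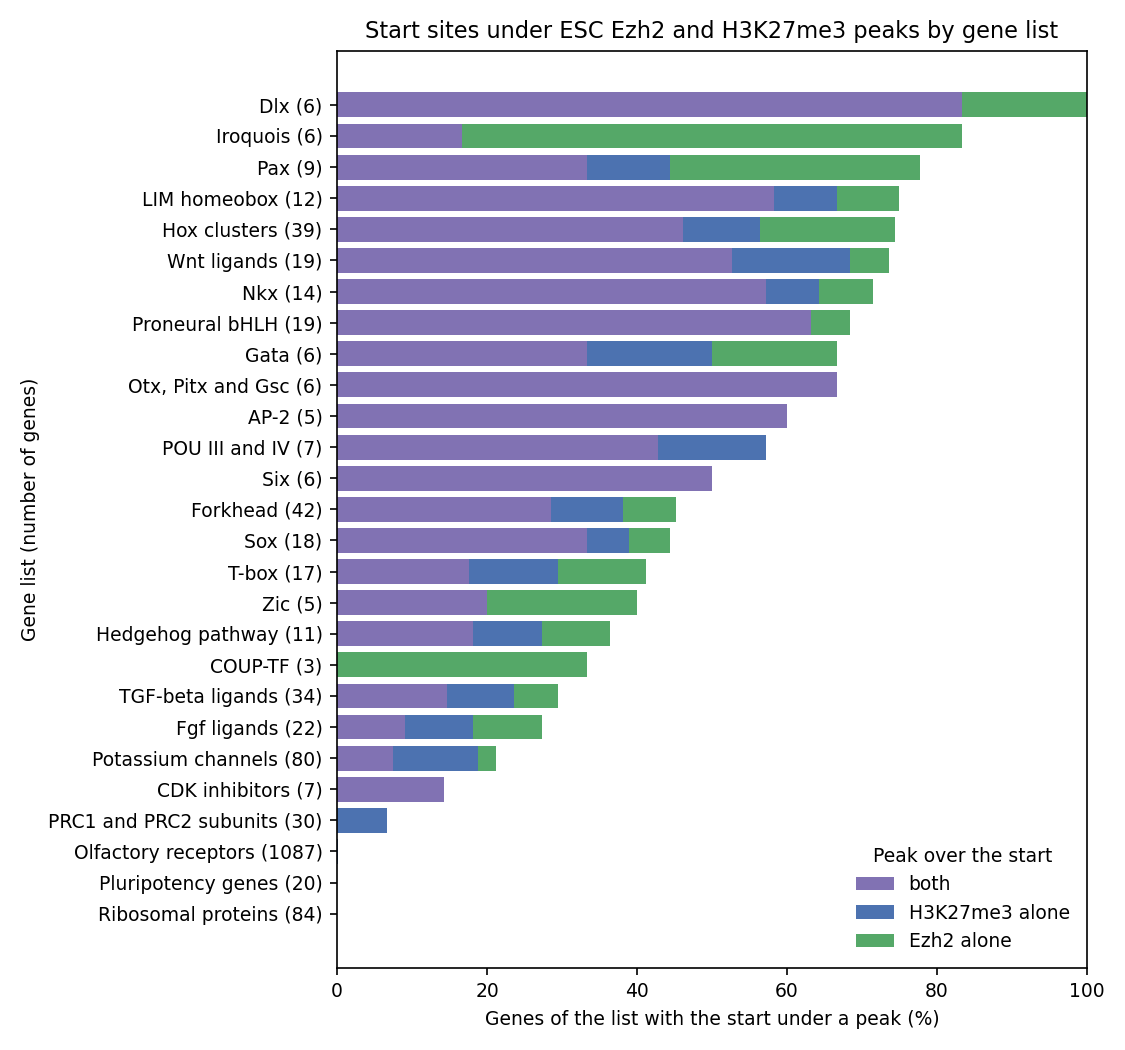
Share of the genes in each of 27 lists (x axis, percent, number of genes in brackets) whose start lay under both an ESC Ezh2 and an ESC H3K27me3 peak, under H3K27me3 alone or under Ezh2 alone. Developmental families fill the upper rows, Iroquois shows 4 of 6 genes under Ezh2 alone, and potassium channels show more H3K27me3 alone (9) than both (6).

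The 5 widest H3K27me3 peaks with Ezh2 each held the start of at least 1 developmental regulator. The widest H3K27me3 peak, 26000 bp over Hoxa9, Hoxa10 and Hoxa11 (chr6:52173601-52199600), shared 70.8% of its bases with 2 Ezh2 peaks that left the Hoxa10 start uncovered. The next were 15600 bp over Ebf3, a neuronal transcription factor (chr7:144500201-144515800, 94.9% shared), 14400 bp over Uncx, a homeobox gene of the somites (chr5:140016801-140031200, 91.7%), 11800 bp over Tbx2, a T-box repressor (chr11:85645201-85657000, 86.4%), and 11600 bp over Hmx1, a homeobox gene of eye and ear, with E130018O15Rik (chr5:35727801-35739400, 58.6%). At Uncx both peaks were 14400 bp wide, with Ezh2 displaced 1200 bp towards the start. All 5 overlapped Ring1b and Cbx2, and 4 of the 5, all but Tbx2, overlapped H3K27me3 in NSCs.

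Among the 5 widest H3K27me3 peaks without Ezh2 were 5000 bp over Lhx2, a LIM homeobox gene of eye and forebrain (chr2:38191201-38196200), and 4600 bp each over Nat8l, the N-acetylaspartate synthase of neurons (chr5:34337201-34341800), Sdk1, a synaptic adhesion protein (chr5:141715601-141720200), and Kirrel3, another adhesion protein (chr9:34293201-34297800). The nearest Ezh2 was 6200 bp away at Lhx2, 10200 bp at Nat8l, and 631600 and 351800 bp at Sdk1 and Kirrel3. These 4 overlapped Ring1b, and the Lhx2 peak Cbx2.

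The widest Ezh2 peaks without H3K27me3 lay, in 4 of 5 cases, within 2800 bp of H3K27me3. They were 3800 bp over an exon of Hoxb4 (chr11:96178201-96182000), 3800 bp in intergenic sequence 178220 bp from the start of Gdi2 (chr13:3357201-3361000), 3400 bp over an exon of Hand1, a helix-loop-helix factor of heart and placenta (chr11:57640601-57644000), 3000 bp over the start of Hoxd8 (chr2:74541801-74544800), and 2800 bp in an intron of Otx2, a homeobox gene of the anterior head (chr14:49283801-49286600). H3K27me3 lay 1200 bp away at Hoxb4, 600 bp at Hand1, 2800 bp at Hoxd8 and 2000 bp at Otx2. The peak far from Gdi2 had none within 6997200 bp, although it overlapped Ring1b and Cbx2 in ESCs and both lists in NSCs. All 5 overlapped Ring1b.

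The Hox clusters showed how the lists interleave. Over the Hoxb cluster and 5 kb to each side there were 10 Ezh2 peaks (32200 bp) and 17 H3K27me3 peaks (38800 bp), which shared 19000 bp. Of the 10 Ezh2 peaks 9 met H3K27me3, while 7 of the 17 H3K27me3 peaks met no Ezh2. Hoxb13, Hoxb5 and Hoxb7 had both at the start, Hoxb6 and Hoxb8 H3K27me3 alone and Hoxb1 Ezh2 alone. The Hoxa cluster had 12 Ezh2 and 13 H3K27me3 peaks that shared 42000 bp, the Hoxc cluster 16 and 16 sharing 23000 bp, and the Hoxd cluster 11 and 10 sharing 25400 bp. Hoxd was the cluster in which Ezh2 covered more bases than H3K27me3, 38200 against 36200 bp.

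At the Olig locus both genes had both peaks. Olig2, a regulator of oligodendrocytes and motor neurons, had a 9800 bp H3K27me3 peak and a 7200 bp Ezh2 peak. Olig1 beside it had peaks of 2000 bp and 2800 bp, and another H3K27me3 peak of 2000 bp between the genes met no Ezh2. The lists shared 8600 bp over this locus, and neither had a peak over Hnrnpa3.

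Ring1b, the ubiquitin ligase of PRC1, was found most often where Ezh2 and H3K27me3 met. It overlapped 927 of the 959 H3K27me3 peaks with Ezh2 (96.7%, 95.3 to 97.7%), 654 of the 1233 without (53.0%, 50.2 to 55.9%) and 129 of the 223 Ezh2 peaks without H3K27me3 (57.8%, 51.1 to 64.4%). Cbx2 overlapped 48.6% (45.4 to 51.8%), 4.22% (3.17 to 5.49%) and 20.2% (15.1 to 26.1%) of the same classes. Neither PRC1 protein was found at 1.98% of H3K27me3 peaks with Ezh2, at 46.96% of those without and at 40.4% of Ezh2 peaks without H3K27me3. The differences held between peaks of the same width. Among peaks of 1000 bp Ring1b overlapped 44 of 44 H3K27me3 peaks with Ezh2 and 135 of 325 without (41.5%), at 1600 to 1800 bp 93.3% and 55.6%, and at 3000 to 4800 bp 99.2% and 84.5%. For Cbx2 at 1600 to 1800 bp the shares were 31.5% and 3.59%, and at 3000 to 4800 bp 57.9% and 8.62%. Between Ezh2 peaks of 1000 bp Ring1b overlapped 91.1% with H3K27me3 and 37.3% without, and between those of 1600 to 1800 bp 93.4% (89.0 to 96.4%) and 81.6% (65.7 to 92.3%). Cbx2 overlapped 16.7% and 9.64% of them at 1000 bp, and 26.9% (20.9 to 33.7%) and 36.8% (21.8 to 54.0%) at 1600 to 1800 bp, where the order was the reverse. All ESC targets but Ring1b shared an input, and its part in the overlap of Ezh2 with Cbx2 and H3K27me3 was not tested.

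The classes also differed in the NSC lists, which came from separate libraries. H3K27me3 in NSCs overlapped 449 of 959 H3K27me3 peaks with Ezh2 in ESCs (46.8%, 43.6 to 50.04%), 168 of 1233 without (13.6%, 11.8 to 15.7%) and 44 of 223 Ezh2 peaks without H3K27me3 (19.7%, 14.7 to 25.6%). Ring1b in NSCs overlapped 29.9%, 8.27% and 17.5%. Between peaks of 1600 to 1800 bp the NSC H3K27me3 shares were 38.2% with Ezh2 and 13.4% without, and between peaks of 3000 to 4800 bp 53.3% and 24.1%. Ezh2 peaks did not keep one order across widths. At 1000 bp NSC H3K27me3 overlapped 24.4% of Ezh2 peaks with H3K27me3 and 7.23% without, but at 1600 to 1800 bp 37.6% (30.8 to 44.7%) and 44.7% (28.6 to 61.7%). For NSC Ring1b the shares were 13.3% and 8.43% at 1000 bp, and 20.8% (15.4 to 27.2%) and 44.7% (28.6 to 61.7%) at 1600 to 1800 bp, with 38 Ezh2 peaks without H3K27me3 in that range. By gene, NSC H3K27me3 covered 191 of the 447 starts under both (42.7%, 38.1 to 47.5%), 54 of the 517 with H3K27me3 alone (10.4%, 7.94 to 13.4%) and 26 of the 125 with Ezh2 alone (20.8%, 14.1 to 28.97%), beside 1.77% of all starts. Among the 49 starts in Ezh2 peaks that met no H3K27me3 in ESCs, 7 were under H3K27me3 in NSCs, and these were Foxa1, Gm10129, Hoxd3, Hoxd8, Pax1, Tbx21 and Vwa2.

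**Figure D4:**
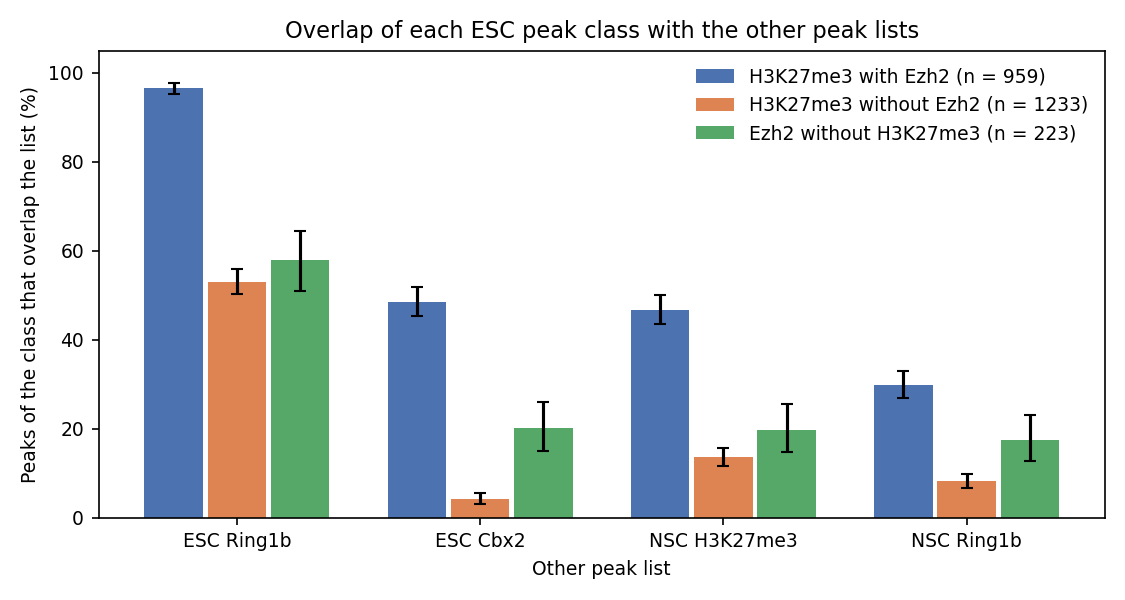
Share of the peaks in each ESC class (y axis, percent) that overlap the ESC Ring1b, ESC Cbx2, NSC H3K27me3 and NSC Ring1b lists, with exact 95% intervals that cover counting error only. H3K27me3 peaks with Ezh2 have the highest bar in all 4 lists, and H3K27me3 peaks without Ezh2 the lowest, at 4.22% for Cbx2.

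The share of peaks with a start inside moved with peak width. A protein-coding start lay inside 53.0% (49.8 to 56.2%) of H3K27me3 peaks with Ezh2, 33.7% (31.1 to 36.5%) of those without and 21.5% (16.3 to 27.5%) of Ezh2 peaks without H3K27me3. Between H3K27me3 peaks of the same width the difference was not seen. At 1000 bp the shares were 15.9% with Ezh2 and 16.3% without, at 1600 to 1800 bp 38.8% and 44.8%, at 2000 to 2800 bp 50.6% and 51.6%, and at 3000 to 4800 bp 65.9% and 69.0%. The range from 1200 to 1400 bp was the exception, with 37.0% (26.6 to 48.5%) and 24.7% (20.3 to 29.6%). Ezh2 peaks with and without H3K27me3 held a start in 28.9% and 10.8% at 1000 bp, 28.5% and 30.1% at 1200 to 1400 bp, and 45.2% and 28.9% at 1600 to 1800 bp. By the place of the centre, 15.2% of H3K27me3 peaks with Ezh2, 22.1% of those without and 40.4% (33.9 to 47.1%) of Ezh2 peaks without H3K27me3 were intergenic.

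Within a marked domain, CG dinucleotides were dense where Ezh2 was. Stretches shared by both lists held 5.95 CG per 100 bp, H3K27me3 beside Ezh2 in the same peaks 2.91, and Ezh2 beside H3K27me3 4.54. In 552 of 606 H3K27me3 peaks with at least 400 bp of each kind (91.1%, 88.5 to 93.2%) the shared bases were richer in CG than the rest of the peak, with medians of 6.25 and 2.50 per 100 bp. Shared bases tend to lie in the middle of a peak, and the part of position in this difference was not tested. H3K27me3 peaks without Ezh2 held 4.75 CG per 100 bp, between these values.

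Compared across whole peaks, the ratio of observed to expected CpG, in which 1 would mean as many CG as the base composition allows for by itself, had a median of 0.634 in H3K27me3 peaks with Ezh2 (quartiles 0.553 and 0.714), 0.565 in those without (0.436 and 0.684), 0.676 in Ezh2 peaks with H3K27me3, and 0.570 in Ezh2 peaks without it. The last class had a long lower tail, with a first quartile of 0.209. At the starts themselves the groups were alike. In the 200 bases around the start, 82.3% (78.5 to 85.8%) of starts under both, 79.1% (75.3 to 82.5%) with H3K27me3 alone and 78.4% (70.2 to 85.3%) with Ezh2 alone held 10 or more CG, beside 50.9% of all starts.

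The lower tail came from a set of Ezh2 peaks that lacked both H3K27me3 and Ring1b. This division was made after the tail had been seen. The 129 Ezh2 peaks without H3K27me3 that overlapped Ring1b had a median CpG ratio of 0.653 (0.573 and 0.730), near the 0.677 of Ezh2 peaks that carried both. The 94 without Ring1b had a median of 0.197 (0.116 and 0.320), and 74 of them (78.7%, 69.1 to 86.5%) were below 0.4, against 2 of 129 (1.55%, 0.188 to 5.49%). Their median GC content was 45.0% against 58.5%. Among H3K27me3 peaks without Ezh2 the same division moved the median from 0.620 with Ring1b to 0.507 without, a smaller step.

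**Figure D5:**
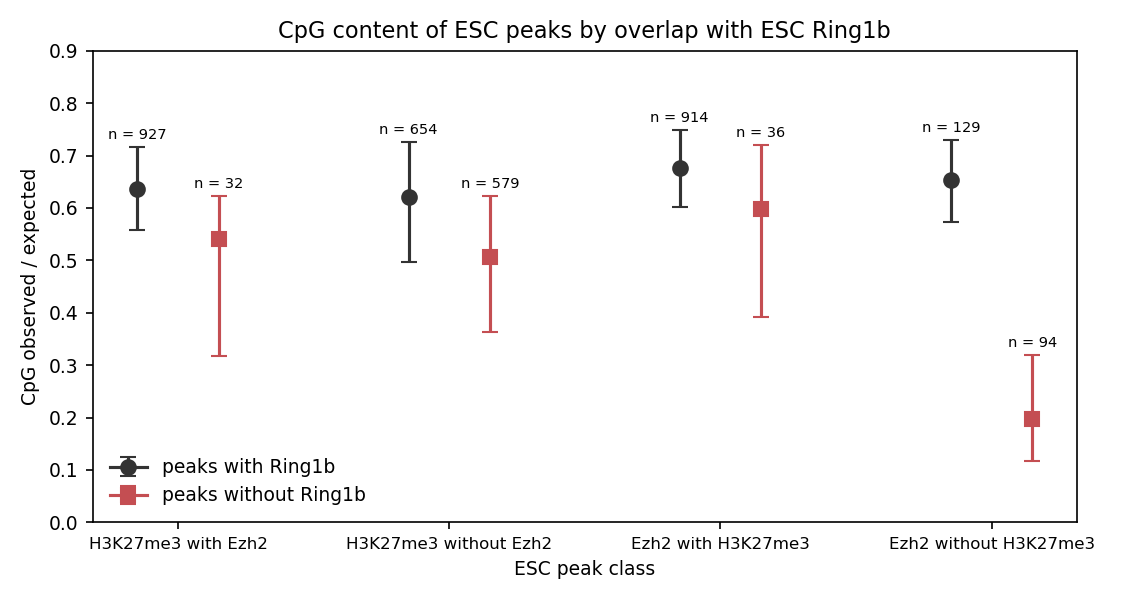
Ratio of observed to expected CpG (y axis) in each ESC peak class (x axis), for peaks with and without ESC Ring1b, as medians with bars from the first to the third quartile and the number of peaks above. Ezh2 peaks with neither H3K27me3 nor Ring1b stand apart at 0.197, and the other 7 medians lie between 0.507 and 0.677.

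These 94 peaks differed from the 129 in place as well. H3K27me3 lay within 10 kb of 66 of the 129 with Ring1b (51.2%, 42.2 to 60.1%) and of 5 of the 94 without (5.32%, 1.75 to 11.98%), with median gaps of 6.2 and 436 kb. A start lay within 1 kb of 55.8% (46.8 to 64.5%) and 11.7% (5.99 to 19.97%). NSC H3K27me3 overlapped 43 of the 129 (33.3%, 25.3 to 42.2%) and 1 of the 94 (1.06%, 0.0269 to 5.79%), and NSC Ring1b 39 of the 129 and 0 of the 94, which allows a share of up to 3.85% by the exact interval. The 94 were narrow, with 52 (55.3%) of a single window, against 31 (24.0%) of the 129. Among Ezh2 peaks of 1000 bp alone, the 90 with H3K27me3 had a median CpG ratio of 0.673 and the 83 without had 0.241.

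Some unpaired peaks lay beside the other list. Of the 223 Ezh2 peaks without H3K27me3, 7 abutted an H3K27me3 peak, 31 (13.9%) lay within 1 kb and 71 (31.8%) within 10 kb. Of the 1233 H3K27me3 peaks without Ezh2, 7 abutted an Ezh2 peak, 41 (3.33%) lay within 1 kb and 169 (13.7%) within 10 kb. The median gaps were 0.232 and 0.519 Mb, so most unpaired peaks of both kinds were far from the other list.

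The X chromosome held 20 of 223 Ezh2 peaks without H3K27me3 (8.97%, 5.57 to 13.5%), against 15 of 950 Ezh2 peaks with H3K27me3 (1.58%, 0.886 to 2.59%) and 21 of 1233 H3K27me3 peaks without Ezh2 (1.70%). Whole lists of the series also varied, with 8.23% of ESC Cbx2 and 8.49% of NSC Ring1b peaks on the X chromosome, while ESC Ring1b (2.96%) and NSC H3K27me3 (3.83%) had less. Of the 94 Ezh2 peaks without H3K27me3 or Ring1b 11 lay there, and of the 129 with Ring1b 9. The share of the genome or of all genes on the X chromosome was not computed. These values therefore do not show which class lies above or below that share. The input reads were not analysed here, and the part of copy number or mappability was not tested.

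The 49 genes with a start in an Ezh2 peak that met no H3K27me3 were of mixed kind. Besides the 10 members of the developmental lists given above, they included Twist1, a helix-loop-helix factor of mesoderm, Msc, a related muscle factor, Kdr, a receptor for VEGF, and Csf1, the macrophage growth factor, which were picked out after their values were seen. Ring1b covered 37 of the 49 starts (75.5%, 61.1 to 86.7%), beside 7.03% of all protein-coding starts, 96.0% of those under both and 59.8% of those with H3K27me3 alone, with Twist1, Kdr and Csf1 among them and Msc not. H2-Q2 and H2-Q6, without Ring1b, belong to a family of closely similar MHC class I genes, so reads there could be placed uncertainly.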

How the data were processed

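ChIP-seq libraries of J1 ESCs and of NSCs derived from them were assigned to targets by their titles, 1 library per target. The authors mapped paired-end tags to mm9 (the submitters' processing notes name BWA, the paper's methods Bowtie), slid a 1 kb window in steps of 200 bp, scored its tag count over input with a negative binomial model tuned by eye, joined neighbouring enriched windows and deposited the resulting starts and ends. Thresholds, depths and the handling of tags with several alignments are not given in the sources used here. The 4 inputs were not analysed here.

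Overlaps (1 bp or more), widths, gaps and centres came from scripts in Python (3.11.15) that used numpy (2.4.6), pysam (0.24.0) and scipy (1.17.1), with plots by matplotlib (3.10.9). Start sites of 22350 protein-coding genes came from GENCODE on mm9 (NCBIM37), 1 start per gene at the outer end, and base composition from the same assembly. The expected CpG was taken from the C and G content of each interval. A single peak that held several starts was counted once, and its offset was measured to the start nearest its centre. In the 597 pairs the offset was measured to the start nearest the middle of the shared stretch. There an H3K27me3 peak with several Ezh2 peaks could be counted more than once. Planted partners and offsets were tested on simulated data, with 587 of 587 recovered.

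Named genes were those at the 5 widest peaks of each class, the peaks with most partners, the 3 largest offsets, members of 27 family lists, and the Hoxb, Olig, Hnrnpa3 and Nanog loci, with every list member under Ezh2 alone. The other Hox clusters and a few genes, as stated, were added after values were seen. Sequences were the 2 starts nearest the peak centre among the 20 widest peaks of each class that held a start. A few genes and peaks that these rules name are not reported here. The windows were shortened to 30 transcribed bases. The AP-2 genes were matched by their older symbols. The members and lists were chosen with earlier results of these data known. With 1 library per target no test was made.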

Additional observations from a re-analysis of the deposited data

How the results depend on the processing

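The alternatives required 50% of the shorter peak to be shared, or counted peaks up to 1 kb apart as shared. Others left single-window peaks, or peaks under 2 kb, out of both lists before pairing. A peak without a partner in those settings could still overlap a narrower peak that was left out. The rest merged peaks within 3 kb, left out the X chromosome, or changed the pairing of peaks or the choice of start sites. A share stayed if it lay within its exact interval, and a median if it lay within an exact interval from ranked values. Shares of bases were given an interval as if they were shares of peaks. A difference stayed if both of its parts did, and a count if it was within 1.5 times. Of 74 recomputed main values 52 stayed by these rules, 21 moved and 1 changed sign. The sign change was in the difference of 2 medians, the distance from the start of H3K27me3 centres minus that of Ezh2 centres in peaks with a partner, which was -27 bp (H3K27me3 nearer), -5 bp at 2 kb or more and 31 bp after merging (Ezh2 nearer). The cause was not tested, and each is under 1 step of the grid.

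With peaks under 2 kb left out of both lists, 49.6% of H3K27me3 peaks had Ezh2 and 46.0% of H3K27me3 bases were under Ezh2. In that setting 278 starts had both. Against the full Ezh2 list the share of H3K27me3 peaks with Ezh2 was 58.4% at 2000 to 2800 bp. It was 81.8% at 3000 to 4800 bp and 98.5% at 5000 bp or more. With both lists cut at 2 kb, H3K27me3 peaks with Ezh2 exceeded those without by 1000 bp in median width and 8.34 percentage points in starts. They exceeded them by 15.7 points in Ring1b, 57.9 in Cbx2, 34.7 in NSC H3K27me3 and 0.0286 in CpG ratio. Without single-window peaks in either list the same differences were 1000 bp, 13.3, 37.3, 47.4, 34.1 and 0.0457. With classes from the full lists, a start lay in 50.6% with Ezh2 and 51.6% without at 2000 to 2800 bp. At 3000 to 4800 bp those shares were 65.9% and 69.0%. After merging, 78.2% of Ezh2 bases were under H3K27me3, and the differences were 23.2 points in starts and 42.0 in Cbx2. With gaps up to 1 kb allowed, 83.6% of Ezh2 peaks had H3K27me3. With starts up to 1 kb from a peak, 692 had both. Of 125 values by class, 89 stayed, 36 moved and 0 changed sign. Moves of over 1.5 times came mostly at 2 kb or more. Ezh2 peaks without an H3K27me3 peak of that width overlapped Ring1b at 100%, Cbx2 at 60%, NSC H3K27me3 at 50% and a start at 51%. H3K27me3 peaks without an Ezh2 peak of that width overlapped the same lists and a start at 83.4%, 12.5%, 25.2% and 55.6%. Both groups had a median width of 2400 bp, and 292 starts lay under H3K27me3 but no Ezh2 peak of that width. With the full H3K27me3 list, 94.4% of Ezh2 peaks of 2000 to 2800 bp and 97.6% at 3000 to 4800 bp met H3K27me3. With both lists cut at 2 kb, 81.4% of Ezh2 peaks did. After merging, Cbx2 overlapped 2.63% of H3K27me3 peaks without Ezh2. CpG content was not recomputed for merged peaks, for gaps or for autosomes alone. No paired analysis was possible because each target had 1 library. Depth is unknown, and a peak missing from a list may be a signal below the threshold.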

Other observations

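Starts of non-coding genes showed the same 3 states, counted after the protein-coding results had been seen. Of 1273 lincRNA genes of the annotation, 49 (3.85%) had both peaks over the start, 43 (3.38%) H3K27me3 alone and 17 (1.34%) Ezh2 alone, beside 2.0%, 2.31% and 0.559% of protein-coding starts. Those with both included Six3os1, Emx2os, Dio3os, Hoxa11as and Vax2os1, whose names mark them as neighbours, on the opposite strand, of developmental genes, so a single peak can cover the starts of both genes of such a pair. Of 1576 miRNA genes, counted at the 5′ end of the annotated hairpin since the start of the primary transcript is not annotated, 12 (0.761%) lay under both, 12 under H3K27me3 alone and 4 (0.254%) under Ezh2 alone. Mir124a-3, the hairpin of a neuronal miRNA, Mir375, known from pancreatic islets, and Mir196b, in the Hoxa cluster, lay under both. Mir137, Mir219-2 and Mir196a-2 lay under H3K27me3 alone, and Mir10a, beside Hoxb4, with Mir615, in the Hoxc cluster, and Mir129-2 under Ezh2 alone.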
